A study of Mus musculus with 4 samples.

Results

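Vip inhibitory neurons of the mouse hippocampus were 410 nuclei out of 60288 barcodes in 4 single-nucleus RNA libraries. They were chosen by UMIs (unique molecular identifiers, the counted RNA molecules). Members were barcodes with at least 500 detected genes, at least 3 UMIs of Gad1 and Gad2 together, at most 1 of Slc17a7, at least 2 of Vip, at least 1 of Adarb2, at most 1 of Sst and 0 of Pvalb. The 4 libraries were 1 each of wild type mice, Total/global MAGL-KO mice, Astrocyte specific MAGL-KO mice and Neuron specific MAGL-KO mice. MAGL is monoacylglycerol lipase, encoded by Mgll, which breaks down the endocannabinoid 2-arachidonoylglycerol. The title of the series asks how excess endocannabinoid in neurons bears on cognition. The deleted exons, the drivers of the cell type deletions, the strain, the age and the number of animals per library are stated neither in the labels nor in the notes used here. Each genotype had 1 library, so no test was possible: every difference below is between libraries, and every interval is a 95% counting interval only. Values are given in the order wild type, total, astrocyte and neuron knockout, as the libraries are labelled.

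Vip neurons are inhibitory neurons that arise in the caudal ganglionic eminence and release GABA together with the vasoactive intestinal peptide. In the hippocampus many of them contact other inhibitory neurons, above all those with somatostatin, and so relieve pyramidal neurons from inhibition. Those with calretinin (Calb2) are known as interneuron-selective cells, and those with cholecystokinin (Cck) as basket cells that carry the cannabinoid receptor CB1 (Cnr1) on their terminals. 2-arachidonoylglycerol released by a target neuron reaches CB1 on such terminals and lowers GABA release.

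The rule found 100, 199, 36 and 75 nuclei. Their summed UMIs were 814767, 1258452, 242493 and 635664, and their median UMIs per nucleus 7277.5, 5099, 5716.5 and 8000. The astrocyte library therefore carried the widest intervals. Scrublet called 5, 58, 2 and 4 of these nuclei doublets, that is 29.1% in the total library and 5.00% to 5.56% in the other 3. Of all barcodes tested, 3.96%, 23.3%, 5.99% and 2.14% were called, and 27.6% of the inhibitory nuclei of the total library. The high share of that library was thus not particular to Vip nuclei. Where called doublets bear on a ratio of the total library, its value without them is given too. The libraries also differed in sex: 53, 0, 19 and 33 nuclei held Xist and no UMI of 4 Y-linked genes, and 38, 174, 12 and 32 held the reverse. Between 108 and 466 barcode sequences were shared by any pair of libraries, but none was a Vip nucleus in both.

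Mgll, the targeted gene, was found at 101, 88.2, 107 and 88.1 CPM (UMIs of the gene per 1e6 UMIs of the Vip nuclei), from 82, 111, 26 and 56 UMIs. Against wild type the log2 ratio of Mgll read -0.19 (-0.62 to 0.24) for the total, 0.09 (-0.60 to 0.74) for the astrocyte and -0.19 (-0.71 to 0.32) for the neuron library. All 3 intervals included 0. A deletion in astrocytes would leave neurons as they are, so Vip nuclei cannot check that label. For the total and neuron labels Mgll RNA gave no support in these nuclei, though the labels do not say whether the counted part of the gene was deleted. Mgll lies on chr6:88724412-88828360 on the plus strand (mm10).

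Vip and Adarb2 were part of the rule, so their presence does not test the label. Vip, at chr10:5639218-5647617, reached 2726 CPM (2614 to 2842), 1659 (1588 to 1731), 1975 (1802 to 2161) and 1970 (1862 to 2082). Adarb2, a brain relative of the RNA-editing enzymes with no known editing activity, stood at 17333, 13802, 18698 and 21639 CPM. Npas1, a transcription factor of caudal interneurons that the rule did not use, stood at 126, 89.8, 153 and 151 CPM and was found in 51.0%, 41.2%, 66.7% and 69.3% of the nuclei. In granule nuclei, which should lack it, 0.00% to 0.483% held an Npas1 UMI at median depths of 8957.5 to 9877 UMIs. Vip itself was found in 0.292% to 1.21% of granule nuclei. Markers of other cells were not absent. Summed over each list, those of excitatory neurons stood at 382, 474, 322 and 362 CPM. Those of Sst neurons stood at 385, 309, 252 and 348, and those of astrocytes at 179, 185, 194 and 184. These sums of several genes exceeded Npas1 alone in every library, as did those of granule cells and Pvalb neurons. Most of the granule sum was Prox1, which also maintains caudal interneurons, so that sum does not mark granule cells alone. Most of the Pvalb sum was Kcnc1. The sums of oligodendrocytes and medium spiny neurons, at 383 and 160 CPM, did so only in the total library. The 5 microglia markers summed to 57.7, 46.1, 41.2 and 62.9 CPM, with Csf1r at 0 in all 4 libraries, and the 4 vascular markers to 4.91, 6.36, 0.00 and 6.29, with Flt1 at 0. The 6 factors of the medial ganglionic eminence summed to 319, 365, 326 and 382 CPM, most of it Maf, with Lhx6 at 0, 3.18, 0 and 0 CPM. Sox6, of the same list, stood at 39.3 CPM in wild type and was also counted in the total library. It had 0 UMIs in the astrocyte and neuron libraries. Sox6 is among the leading genes of cluster 4 of these nuclei, whose 14 nuclei were all called doublets and held 43 Sox6 UMIs. Of those 14 nuclei, 2, 11, 0 and 1 came from the 4 libraries. Without called doublets the sums of the medial factors were 283, 347, 333 and 385 CPM.

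Because the rule used Vip, its level is a description. Nuclei held a median of 23.1, 16.4, 17.3 and 19.4 Vip UMIs per 10000 UMIs, with lowest values of 2.01, 1.68, 2.37 and 1.42 and highest values of 113, 104, 73.3 and 61.2. The nuclei of all 4 libraries overlapped over most of this range. Without called doublets the medians were 26.4, 21.7, 18.0 and 20.2. Few nuclei sat near the threshold: 3, 14, 3 and 3 members held 2 Vip UMIs, and 4, 26, 4 and 6 nuclei outside met every other part of the rule with 1. Npas1 stood at 144, 89.9, 205 and 150 CPM in the former and at 201, 81.0, 93.8 and 249.5 in the latter.

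Vip nuclei made up 10.2% (8.35 to 12.2) of the 984 inhibitory nuclei of the wild type library, those that met the parts of the rule on detected genes, Gad1, Gad2 and Slc17a7. The share was 5.92% (5.14 to 6.77) of 3364 in the total library, 2.97% (2.09 to 4.09) of 1213 in the astrocyte library and 5.76% (4.56 to 7.17) of 1301 in the neuron library. Wild type was highest and the astrocyte library lowest, and at full depth both stood clear of the other libraries' counting intervals. Total and neuron libraries overlapped. Without called doublets the shares were 9.97%, 5.79%, 2.90% and 5.56%. Barcodes with at least 3 Gad UMIs were also thinned to 3000 UMIs, which left out 17, 136, 17 and 12 shallower ones. The shares were then 8.62%, 5.55%, 3.49% and 3.87%, and the neuron library lay close to the astrocyte library. The thinned intervals of wild type (6.08 to 11.8) and the total library (4.42 to 6.87) overlapped, as did those of the astrocyte (2.08 to 5.46), neuron (2.38 to 5.91) and total libraries. With 1 Gad UMI in place of 3, which admitted 454 rather than 199 nuclei in the total library, they were 9.50%, 6.68%, 3.95% and 5.53%. How the dissection of the hippocampus differed between libraries cannot be told apart from genotype here.

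**Figure D1:**
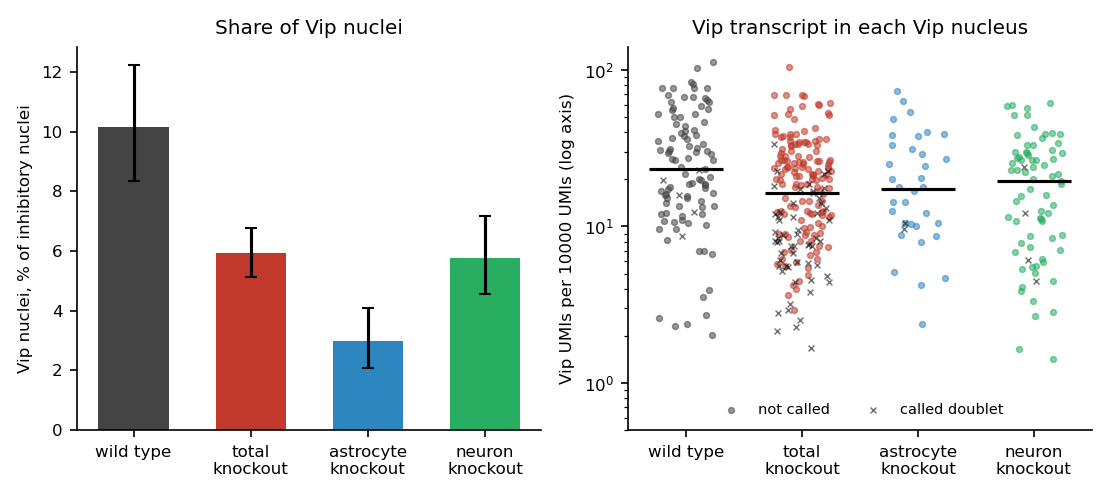
Left, Vip nuclei as a percentage of inhibitory nuclei in each library, with exact binomial intervals. Right, Vip UMIs per 10000 UMIs in each Vip nucleus on a log axis, with the median as a line and called doublets as crosses. The wild type share of 10.2% lies above the other 3, and the 58 called doublets of the total library sit low in Vip.

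Tac2, Crh and Cxcl14 were lower in all 3 knockout libraries than in wild type, as were Vip, Igf1, Penk and Calb2. Vip, Cck and Tac2 are shown first by their promoters, as the peptides with the highest levels in the wild type library. Each line gives the 250 bases before the RefSeq start (GRCm38.p6), 5′ to 3′ on the gene's strand. Capitals mark TGACGTC, the core of the cAMP response element, and TGCGTCA, a variant of it, searched on both strands. Vip is at chr10:5638968-5639217 (plus), Cck at chr9:121495695-121495944 (minus) and Tac2 at chr10:127724228-127724477 (plus).
Vip: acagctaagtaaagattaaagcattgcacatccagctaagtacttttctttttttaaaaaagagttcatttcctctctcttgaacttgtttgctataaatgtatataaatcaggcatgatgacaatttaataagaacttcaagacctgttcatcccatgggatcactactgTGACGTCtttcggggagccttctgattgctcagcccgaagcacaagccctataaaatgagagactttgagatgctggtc
Cck: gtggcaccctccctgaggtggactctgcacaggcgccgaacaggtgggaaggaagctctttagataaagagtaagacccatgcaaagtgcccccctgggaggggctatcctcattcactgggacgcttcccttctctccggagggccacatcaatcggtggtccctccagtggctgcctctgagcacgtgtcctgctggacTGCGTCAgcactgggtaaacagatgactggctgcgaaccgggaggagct
Tac2: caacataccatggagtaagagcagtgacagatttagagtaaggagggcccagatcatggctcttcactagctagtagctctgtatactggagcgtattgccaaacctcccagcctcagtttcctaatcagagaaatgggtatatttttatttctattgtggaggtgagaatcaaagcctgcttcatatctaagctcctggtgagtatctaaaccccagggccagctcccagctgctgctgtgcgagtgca
The Vip window held TGACGTC once, 79 bases before the start, and the Cck window held TGCGTCA once, 49 bases before it. Neither motif was found in the Tac2 window. TGACGTC occurred in 2.78% and TGCGTCA in 1.75% of the 32851 such windows, and neither of the windows that held one held both.

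Tac2, which encodes neurokinin B, was counted in 578, 255, 39 and 296 UMIs. That was 710 CPM (653 to 770), 203 (179 to 229), 161 (114 to 220) and 466 (414 to 522). Wild type was highest, and the intervals of the total and astrocyte libraries overlapped at the bottom. Against wild type, log2 ratios of Tac2 were -1.80 (-2.03 to -1.59) for the total, -2.13 (-2.65 to -1.67) for the astrocyte and -0.61 (-0.81 to -0.40) for the neuron library. Without called doublets these were -1.41, -2.10 and -0.60. Among male nuclei they were -1.76, -2.85 and -1.15. In the astrocyte library 41.0% of the Tac2 UMIs came from 1 nucleus. Tac2 was found in 46.0%, 29.1%, 16.7% and 40.0% of the Vip nuclei.

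Crh, the corticotropin-releasing hormone, was counted in 153, 92, 12 and 30 UMIs. It stood at 188 CPM (159 to 220), 73.1 (58.9 to 89.7), 49.5 (25.6 to 86.4) and 47.2 (31.8 to 67.4), so that the wild type library stood above the other 3 and those overlapped. It was found in 38%, 22.6%, 19.4% and 20% of the nuclei. Crh is among the leading genes of clusters 8, 9 and 10 of these nuclei, which the libraries filled unequally, so fewer such nuclei and less Crh per nucleus cannot be told apart. The log2 ratios were -1.35, -1.88 and -1.96, and -1.17, -1.93 and -2.11 without called doublets. Among male nuclei alone they read -1.0, -0.65 and -1.06. Cxcl14, a chemokine of caudal interneurons, was counted in 179, 128, 10 and 73 UMIs, at 220, 102, 41.2 and 115 CPM. Its log2 ratios were -1.10 (-0.96 without called doublets), -2.36 (-3.51) and -0.93 (-1.08).

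Cck stood at 625 CPM (572 to 682), 366 (334 to 401), 524 (437 to 623) and 837 (767 to 911), highest in the neuron library. Cck was concentrated in clusters 2 and 6 of these nuclei, which the libraries also filled unequally, and a different mix of nuclei and a different level per nucleus cannot be told apart. Over all Vip nuclei of the neuron library, the log2 ratio of Cck to wild type was 0.42 (0.24 to 0.60), and -0.14 among male nuclei. Penk, the precursor of the enkephalins, stood at 250, 184, 194 and 154 CPM, with ratios of -0.45 (-0.47 without called doublets), -0.37 and -0.69. Igf1, a growth factor, stood at 443, 253, 322 and 332 CPM, with ratios of -0.81, -0.46 and -0.42. The total library's Igf1 ratio was -0.41 without called doublets. Npy, which marks few of these nuclei, was counted in 43, 34, 0 and 30 UMIs. A floor of 3 UMIs places it at least 4.27-fold lower in the astrocyte library than in wild type, although 41.9% of the wild type UMIs came from 1 nucleus.

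Of the 16 peptide genes listed, 7 had the 100 UMIs over the 4 libraries needed for a fold, Vip left aside as part of the rule. None of the 7 was at least 2-fold higher in any knockout library. At least 2-fold lower were 3 in the total library (Tac2, Crh, Cxcl14), 4 in the astrocyte library (these and Npy) and 1 in the neuron library (Crh). Without called doublets the counts were 2, 4 and 2, where 0.95%, 6.14% and 1.56% of all genes were at least 2-fold lower and 0.718%, 1.31% and 1.01% higher. Their median log2 ratios were -0.94, -1.88 and -0.61, against -0.021, -0.058 and -0.0045 over all 4738 genes measured at that depth. Without called doublets the median of the total library was -0.51, against -0.030. Of all those genes, 0.549% were at least 2-fold lower in the total library, 4.41% in the astrocyte library and 1.33% in the neuron library; 1.39%, 1.33% and 0.844% were at least 2-fold higher. All 3 comparisons share the wild type library, so a high value there moves all 3 ratios.

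**Figure D2:**
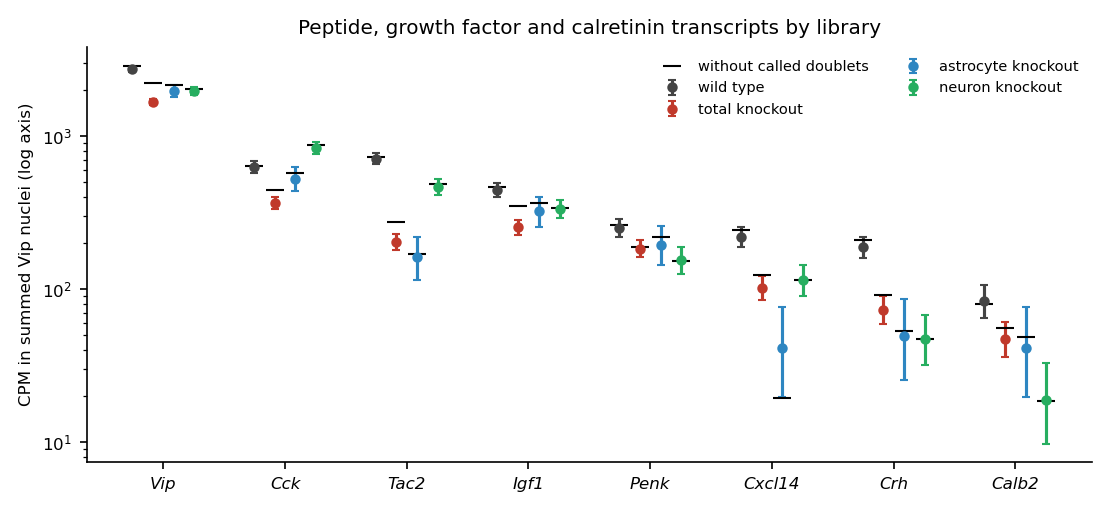
CPM of 8 genes over the summed Vip nuclei of each library, on a log axis, with exact Poisson intervals; black dashes give the level without called doublets. All genes shown but Cck lie highest in wild type, Tac2, Crh and Cxcl14 among them. Cck lies highest in the neuron library, and Calb2 lies lowest there, at 18.9 CPM.

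Among markers of Vip subtypes, Calb2 (calretinin) was counted in 68, 59, 10 and 12 UMIs, at 83.5 CPM (64.8 to 106), 46.9 (35.7 to 60.5), 41.2 (19.8 to 75.8) and 18.9 (9.76 to 33.0). The neuron library lay lowest, with a log2 ratio to wild type of -2.07 (-3.17 to -1.25), or -1.01 among male nuclei. The total library's ratio was -0.82 (-0.50 without called doublets) and the astrocyte library's -0.98. At least 1 Calb2 UMI was found in 42%, 23.1%, 25% and 12% of Vip nuclei, and in 20.4%, 11.4%, 17.1% and 6.76% once nuclei were thinned to 3000 UMIs. Up to 1.21% of granule nuclei held one.

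Grpr, the receptor for gastrin-releasing peptide, stood at 73.7, 24.6, 53.6 and 33.0 CPM, with log2 ratios of -1.54 in the total library (-1.51 without called doublets) and -1.12 in the neuron library. Qrfpr, the receptor of another peptide, ran the other way, at 62.6, 59.6, 120 and 116 CPM, with ratios of -0.07 (0.31 without called doublets), 0.91 (0.22 to 1.62) and 0.88 (0.36 to 1.44). Calb2 and Qrfpr are among the leading genes of clusters 9 and 5, which the libraries filled unequally, so for both a different mix of nuclei and a different level per nucleus cannot be told apart. Reln, the secreted glycoprotein reelin, stood at 85.9, 140, 12.4 and 190 CPM. The astrocyte library held 3 Reln UMIs, a log2 ratio of -2.62 (-5.11 to -1.19). Reln and Npy are among the leading genes of cluster 6, which had 0 nuclei in the astrocyte library. Npy is also among those of cluster 10. For both genes mix and level again cannot be told apart. Of the 11 subtype markers with enough UMIs, 2 were at least 2-fold higher and 1 lower in the total library, 0 and 3 in the astrocyte library, and 2 and 2 in the neuron library. Without called doublets the counts were 1 and 1, 1 and 3, and 2 and 2, where Qrfpr was the one higher in the astrocyte library. Over all genes 1.39%, 1.33% and 0.844% were higher and 0.549%, 4.41% and 1.33% lower. Without called doublets 0.718%, 1.31% and 1.01% were higher and 0.95%, 6.14% and 1.56% lower. Nxph1, an extracellular partner of neurexins that is abundant in other inhibitory nuclei, was one of those higher in the total library. It stood at 38.1, 164, 0 and 104 CPM, with a log2 ratio of 2.08 in the total library (2.68 without called doublets). Of its UMIs, 61.3% in wild type and 51.5% in the neuron library came from 1 nucleus. Nxph1 is among the leading genes of cluster 2, also filled unequally, so mix and level cannot be told apart for it.

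None of 6 factors of the caudal ganglionic eminence and none of 4 GABA synthesis and transport genes passed 2-fold in any library. As 0.549% to 4.41% of all genes did in either direction, counts of 0 in lists this short are no property of these genes. Prox1, which maintains caudal interneurons, stood at 287, 261, 202 and 231 CPM. Slc32a1, which loads GABA into vesicles, stood at 62.6, 50.9, 53.6 and 66.1 CPM, with overlapping intervals.

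Cnr1, the CB1 receptor, stood at 879 CPM (816 to 946), 562 (521 to 605), 977 (857 to 1110) and 1027 (950 to 1109). The total library was lowest. Its log2 ratio was -0.64 (-0.80 to -0.49), -0.42 without called doublets and -1.14 among male nuclei. In the other 2 it was 0.15 (-0.06 to 0.37) and 0.22 (0.07 to 0.38). Abhd6 and Abhd12, which also break down 2-arachidonoylglycerol, stood at 63.8, 75.5, 70.1 and 70.8 and at 72.4, 85.0, 78.4 and 101 CPM. Daglb, which makes it, was counted in 17, 45, 11 and 25 UMIs, with log2 ratios of 0.75, 1.05 and 0.87 whose intervals all included 0. Dagla, the other synthase, had 21, 37, 6 and 6. None of the 8 endocannabinoid genes with 100 UMIs, which Daglb and Dagla did not reach, passed 2-fold in any library. As 0.549% to 4.41% of all genes did in either direction, 0 of 8 is no property of these genes. Their medians were 0.12 (0.011 without called doublets), 0.14 and 0.19, against -0.021, -0.058 and -0.0045 over all genes. Without called doublets Faah, which breaks down anandamide, passed 2-fold in the astrocyte library (1.14), where 1.31% of all genes were at least 2-fold higher.

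Of 19 listed immediate early genes, which neurons switch on within minutes of activity, 4 had enough UMIs. Of these, 3 were at least 2-fold lower in the astrocyte library and none in the other 2 libraries. Of all genes, 4.41% were lower in the astrocyte, 0.549% in the total and 1.33% in the neuron library. The libraries thus differed in calls over all genes too. The list's median log2 ratios were -0.21, -1.47 and -0.18. Nr4a1, a nuclear receptor, was counted in 64, 82, 8 and 40 UMIs, Nr4a3 in 37, 51, 3 and 28, and Egr1 in 23, 54, 1 and 22. The astrocyte ratios were -1.21 (-2.52 to -0.19), -1.73 (-4.22 to -0.22) and -2.32 (-8.14 to -0.15). Among male nuclei they were -0.39, -0.60 and -2.24. Homer1, which shapes the postsynaptic scaffold, stood at 223, 183, 128 and 145 CPM. The 3 calls in the astrocyte library rest on 12 UMIs in 36 nuclei. Nr4a3 is among the leading genes of cluster 10, which the libraries filled unequally, so for it mix and level cannot be told apart.

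**Figure D3:**
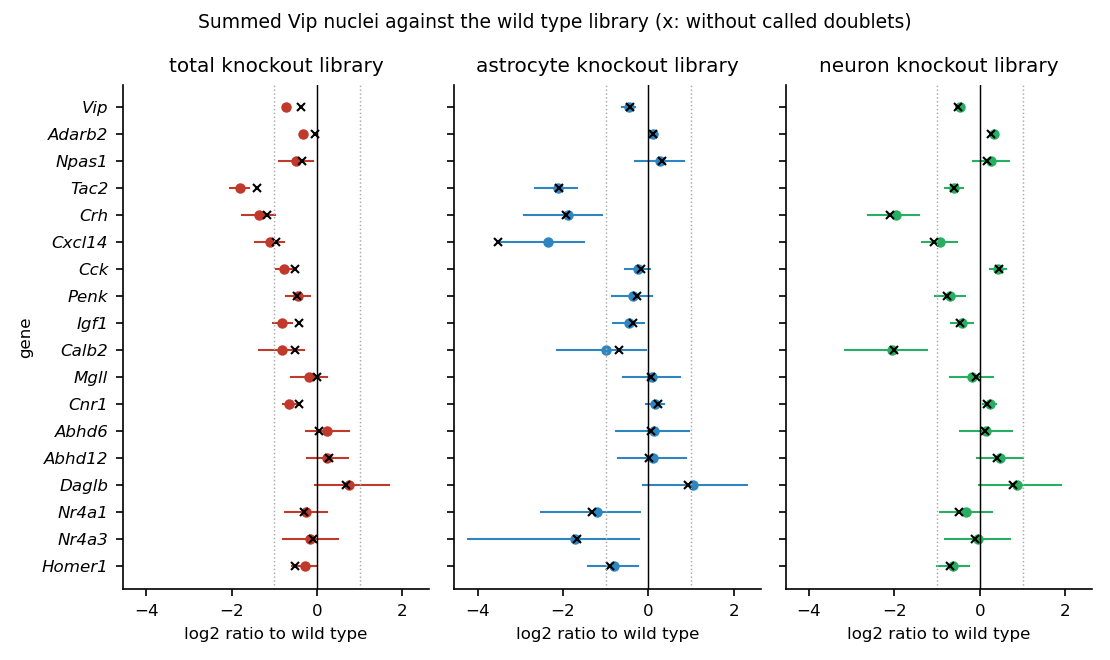
Log2 ratio of CPM to wild type for 18 genes in the summed Vip nuclei of each knockout library, with exact counting intervals; crosses leave out called doublets and dotted lines mark 2-fold. Tac2, Crh and Cxcl14 lie left of 0 in all 3 panels, as do Vip, Penk, Igf1, Calb2 and Homer1 among others. Mgll lies at 0 within its interval in all 3.

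For the synaptic lists, the shares of all genes past 2-fold were again 1.39% higher and 0.549% lower in the total, 1.33% and 4.41% in the astrocyte and 0.844% and 1.33% in the neuron library, so 1 gene of a list is no result about the list. Of 26 adhesion genes, 1 was higher in the total library (Nrg1, 1.04, and -0.22 without called doublets). In the astrocyte library Igsf11 was higher (1.5) and Rgs12 lower (-1.10), and none passed in the neuron library. Without called doublets Nrg1 (-2.74), Nlgn3 (-1.45) and Cntnap5b (-1.45) were also lower in the astrocyte library, where 6.14% of all genes then were. Of 16 ionotropic glutamate receptor genes, Gria3, an AMPA receptor subunit, was higher in the total library (1.52), and none passed 2-fold there without called doublets. Of 10 GABA-A receptor genes, Gabra2 was higher in the astrocyte library (1.34). Of 16 potassium channel genes, Kcnd2 was higher in the total library (1.06), again not without called doublets. In the astrocyte library 2 were then higher, where 1.31% of all genes were. Of 5 metabotropic glutamate receptor genes, Grm3 was higher in the total library (2.08, and 0.87 without called doublets) and lower in the neuron library (-1.45, from 6 UMIs).

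Markers of other cells differed between libraries. The 6 oligodendrocyte markers summed to 72.4 CPM in wild type and 383 in the total library, or 42.4 and 45.9 without called doublets. The 6 medium spiny markers summed to 31.9 and 160, or 34.2 and 43.1. In the astrocyte and neuron libraries the oligodendrocyte sums were 66.0 and 67.7, and the medium spiny sums 66.0 and 50.3. The 6 Lamp5 neuron markers, Reln and Npy among them, summed to 163, 224, 16.5 and 269 CPM, and Lamp5 itself was counted in 0, 25, 1 and 2 UMIs. The 4 markers of oligodendrocyte precursors summed to 40.5, 38.2, 8.25 and 9.44 CPM. Without called doublets these precursor sums were 6.84, 31.97, 9.66 and 8.37 CPM, so that only the total library stayed high. The part of any of these cells in the results was not tested. Of the 99 named values past 2-fold over the 3 comparisons, 69 stayed past it without called doublets.

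Over all genes, 66 were at least 2-fold higher and 26 lower in the total library, against 34 and 45 without called doublets. In the astrocyte library 63 were higher and 209 lower, and in the neuron library 40 and 63. Among the 8 highest in the total library, Gm10754 (3.17), Dach1 (2.34) and Rgs9 (2.33) read 0.19, 0.56 and 0.02 without called doublets. Itpr1, an intracellular calcium channel, kept 1.61 of 2.91 and Ntng1, a netrin-like adhesion protein, 2.23 of 2.91. The lowest were Tac2 and Grpr, followed by Gm35188 (-1.52), 4930555F03Rik (-1.47), Gm43376 (-1.46), Gm38505 (-1.42), Nrg3os (-1.41) and Crh. Without called doublets those from Gm35188 to Nrg3os read -1.56, -1.35, -1.16, -1.45 and -1.21. Nrg3os is annotated antisense to Nrg3, and no label or note used here says whether counting used strand, so reads of the pair may be mixed.

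In the astrocyte library Plcxd3, a phospholipase C-like gene, was highest at 2.36, from 34 UMIs against 21. Ano3 (1.92), Stxbp6 (1.69) and Slit3 (1.58) rested on 1 nucleus each, which held 96.0%, 95.8% and 87.8% of their UMIs and was among the called doublets. Without called doublets they read -3.12, -2.33 and -2.02. The lowest there had no UMI: against the floor of 3 UMIs, Npy was at least 4.27-fold and Adamtsl1 at least 3.97-fold lower than in wild type. Tshz2 and Nxph1 also had none, but their wild type levels of 76.1 and 38.1 CPM were 5.47 and 15.1 without called doublets. Sox5, a transcription factor, was counted in 129, 222, 4 and 18 UMIs, with log2 ratios of -3.12 in the astrocyte and -2.43 in the neuron library. It is among the leading genes of cluster 10, which the libraries filled unequally, so mix and level cannot be told apart. In the neuron library the highest were Ntng1 (3.84, with 31.9% of its UMIs in 1 nucleus) and Plcxd3 (2.56). Ntng1 is among the leading genes of cluster 2, also filled unequally, so its ratios in all 3 libraries carry the same limit. Below Calb2 lay Sox5, and Arap2 (-2.11) and Kcna4 (-2.07) with 6 UMIs each.

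Plcxd3 was one of 7 genes past 2-fold in all 3 comparisons, a set singled out after the values were seen. Bcl11b, Itpr1, Ntng1, Plcxd3 and Runx2 were higher, and Crh and Ubb lower. Plcxd3 stood at 25.8, 65.2, 140 and 159 CPM. Ubb, a polyubiquitin gene with close relatives, stood at 171, 78.7, 41.2 and 69.2 CPM, with ratios of -1.11, -2.00 and -1.28. Among male nuclei its ratios were -0.77, -0.73 and -0.80. Itpr1 rested on 11 wild type UMIs, 45.5% of them from 1 nucleus, and read 0.84 among male nuclei of the astrocyte library. Without called doublets Itpr1, Crh and Ubb stayed past 2-fold in all 3 comparisons. The interval of Itpr1 in the astrocyte library then included 0 (-0.085 to 3.72). Bcl11b, also a medium spiny marker, then read 1.24, -0.15 and 0.68, Runx2 1.02, 0.66 and 0.92, Ntng1 2.23, 0.66 and 4.02, and Plcxd3 0.98, 2.52 and 2.62.

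Vip nuclei were then set beside other inhibitory nuclei of the same library with 0 Vip UMIs: 1560 Sst, 248 Pvalb and 506 Lamp5 nuclei. As measured values chose both sides, these are descriptions. Against Sst nuclei 1.93% of 10745 genes were at least 2-fold higher and 2.38% lower in all 4 libraries. Against Pvalb nuclei these were 3.98% and 3.61% of 7343 genes, and against Lamp5 nuclei 2.46% and 2.28% of 7933. Cck, Crh, Cxcl14, Igf1, Penk and Tac2 were at least 2-fold higher in Vip nuclei in every library and against every comparator. With them, 6 of 11 peptide genes were higher and 3 lower (Cort, Npy, Pdyn) against Sst nuclei, 6 and 2 of 9 (Cort, Tac1) against Pvalb nuclei, and 6 and 1 of 7 (Npy) against Lamp5 nuclei. Tac2 stood at 11.4, 2.57, 1.58 and 5.63 CPM in Sst nuclei, 5.89 to 6.25 log2 units below the Vip nuclei. Cck was nearest in Lamp5 nuclei, at 200, 168, 188 and 237 CPM.

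Receptors parted the classes as well. Htr3a, the ionotropic serotonin receptor typical of caudal interneurons, stood 3.96 to 5.17 log2 units above Sst, 4.18 to 5.45 above Pvalb and 3.14 to 3.99 above Lamp5 nuclei. Htr2c, another serotonin receptor, lay 1.51 to 4.53, 1.44 to 5.28 and 2.41 to 3.84 above. Npy1r and Npy2r, receptors of neuropeptide Y, and Adra1b, an adrenergic receptor, were at least 2-fold higher against all 3 classes in all 4 libraries. Others of these receptor lists were at least 2-fold lower in all 4 libraries: Htr1f against each class, Htr2a and Adra1a against Lamp5, Oprd1 against Sst and Pvalb, and Oprk1 against Sst nuclei. Chrm2, a muscarinic receptor, was lower, at 7.37, 38.9, 20.6 and 39.3 CPM against 136, 160, 167 and 149 in Sst nuclei. Gria1, an AMPA receptor subunit, lay 1.79 to 2.54 log2 units below Sst and 1.26 to 2.40 below Pvalb nuclei.

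Cnr1 was at least 2-fold higher in Vip nuclei against each class, by 2.69 to 3.81 log2 units over Sst, 2.61 to 7.34 over Pvalb and 1.62 to 3.02 over Lamp5 nuclei. Mgll differed otherwise: it lay within -0.02 to 0.42 of Sst and -0.41 to 0.11 of Pvalb nuclei, and 1.48 to 1.65 log2 units below Lamp5 nuclei. The Lamp5 nuclei held Mgll at 302, 247, 332 and 278 CPM. Of 20 potassium channel genes measured against Pvalb nuclei, 7 were at least 2-fold lower in Vip nuclei in all 4 libraries (3.61% of all genes). Among them were Kcna1 and Kcnc1, the latter a channel that serves fast firing. Higher were 5 (3.98% of all genes): Kcnd3, Kcnip4, Kcnn2, Kcnq5 and Kcnt2. Kcnc1 stood at 234, 173, 231 and 245 CPM against 657, 487, 629 and 577. Kcnt2, a sodium-activated potassium channel, was higher against all 3 classes, at 1322, 1204, 1344 and 1182 CPM.

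Prox1 stood 4.16 to 6.41 log2 units above Sst nuclei but only 1.24 to 1.56 above Lamp5 nuclei, which share its origin in part. Cbln2, a synaptic organizer, stood at 137, 77.9, 111 and 101 CPM against at most 5.34 in any comparator. Other leading genes against Sst nuclei were Egfr (5.20 to 7.14) and Sema5b (4.10 to 6.64), and against Lamp5 nuclei Elfn1 (4.67 to 5.62) and Synpr (3.98 to 7.36). Nxph1 was lower than in each class, at 3656, 3352, 3314 and 3378 CPM in Sst nuclei, with 0 UMIs in the Vip nuclei of the astrocyte library.

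**Figure D4:**
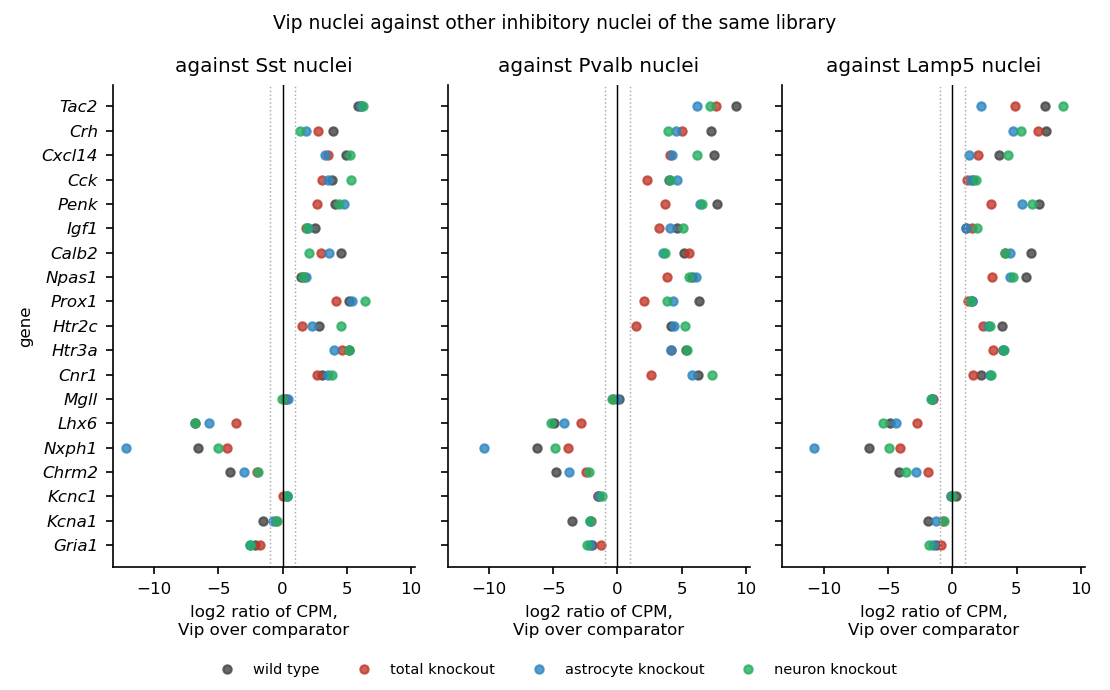
Log2 ratio of CPM in Vip nuclei over Sst, Pvalb and Lamp5 nuclei for 19 genes, 1 point per library, with dotted lines at 2-fold. Peptides, Htr3a and Cnr1 lie right of 2-fold in all 3 panels; Mgll lies left of it only against Lamp5 nuclei, and the leftmost Nxph1 points come from 0 UMIs in Vip nuclei.

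The Vip nuclei were not uniform. At least 2 Cck UMIs were found in 32% (23.0 to 42.1), 27.6% (21.6 to 34.4), 33.3% (18.6 to 51.0) and 36% (25.2 to 47.9). The intervals of the 4 libraries overlapped. At least 1 Cck UMI was found in 45%, 47.2%, 55.6% and 52% of Vip nuclei but in 75.1%, 60.1%, 65.2% and 60.8% of the deeper granule nuclei, which held Cck at 189, 143, 166 and 138 CPM. Shares of nuclei with a Cck UMI are therefore not read as shares that express it. At least 2 Calb2 UMIs were found in 17%, 5.03%, 2.78% and 1.33%, that is 17, 10, 1 and 1 nuclei. Among nuclei with any Calb2 UMI, 42.9%, 32.6%, 33.3% and 33.3% also held Cck, against 46.6%, 51.6%, 63.0% and 54.5% of the rest. The Calb2 comparison rests on 1 nucleus in each of 2 libraries. It called Lpp higher (0.0243% of 4111 genes), and 35 genes lower (0.851%), in all 4 libraries.

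Between nuclei with at least 2 Cck UMIs and those with 0, 0.878% of 4216 genes were at least 2-fold higher in all 4 libraries and 0.617% lower, Cck left aside. The nuclei with Cck were also deeper, with median UMIs of 8336 against 7094, 7401 against 4788, 8869.5 against 5156.5 and 10329 against 7078.5, and the part of depth was not tested. The former included Col25a1 and Col19a1, 2 collagens, and Frem1, a matrix protein. Col25a1 stood at 1205, 763, 2113 and 2628 CPM with Cck, in the order of the libraries, against 26.0, 76.8, 22.1 and 54.6 without. Htr2c (1.85 to 2.24) and the glutamate receptor partner Neto1 (1.62 to 2.46) were also higher. Cnr1 lay 0.98 to 1.81 log2 units higher and Tac2 0.81 to 2.07. Lower with Cck were Grin3a (-2.52 to -1.91), Nos1, the neuronal nitric oxide synthase (-3.83 to -1.70), Qrfpr (-3.21 to -1.53) and Grm8 (-5.32 to -1.44). Penk lay below by 0.78 to 3.63.

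**Figure D5:**
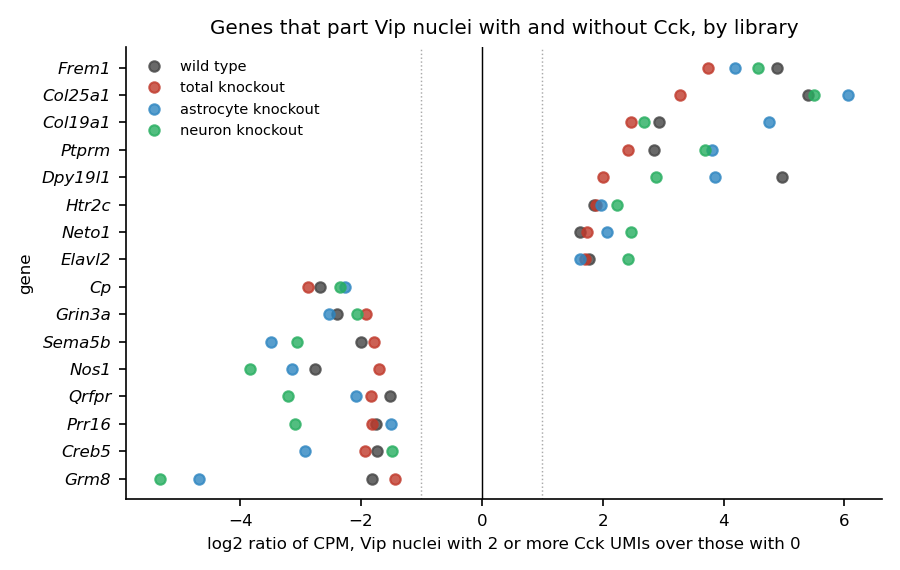
Log2 ratio of CPM in Vip nuclei with at least 2 Cck UMIs over those with 0 for the 16 genes named by rule, 1 point per library, with dotted lines at 2-fold. Frem1 and Col25a1 lie at the far right in all 4 libraries, and the 8 genes from Cp to Grm8 lie left of 2-fold in all 4.

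Clustering without the rule, sex and mitochondrial genes gave 10 clusters, which are called by number since they were not named as types. Clusters 1, 3 and 4 were made of called doublets by 85.7%, 100% and 100%. Their 67 nuclei led with genes of other cells, such as Tshz2 in cluster 1 and Rgs9 in cluster 3, and 56 of them came from the total library. The other 343 nuclei held 8 called doublets. Among these, clusters 2 and 6 were rich in Cck, at 1098 and 2661 CPM, and in Cnr1, at 1363 and 2115 CPM, while Penk stood at 21.8 and 0.00. Cluster 2 led with Col25a1, cluster 5 with Nos1 and Qrfpr, cluster 6 with Gulp1, cluster 7 with Igfbp7, cluster 8 with Thsd7b, cluster 9 with Crispld2 and cluster 10 with Sntb1. Clusters 5 and 7 held little Cck, at 38.9 and 98.3 CPM, and Penk at 302 and 387.

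Tac2 varied by library within clusters whose 15 leading genes do not include it. In cluster 10 it stood at 1651, 371, 0.00 and 390 CPM, over 21, 28, 5 and 5 nuclei. In cluster 2 it stood at 380, 116, 330 and 176 CPM, over 10, 22, 8 and 17 nuclei, but 8 of the 22 were called doublets. In cluster 7 the levels were 239, 54.7, 36.6 and 33.5 CPM, and in cluster 5 they were 46.2, 9.13, 197 and 295 CPM. Cluster 8 held 153 CPM in wild type and 510 in the total library, over 6 and 5 nuclei. In these sums the total library read below wild type in clusters 5, 7 and 10, which held no called doublet, and above it in cluster 8. The order of the other 2 libraries differed between clusters. Some of these levels rest on few UMIs: cluster 8 held 28 Tac2 UMIs over all libraries, from 4 nuclei. No counting intervals were computed within clusters, so the differences there are descriptions. Cluster 9, where Tac2 is among the leading genes, held it at 1854 CPM in wild type, 354 in the total and 1484 in the neuron library. Cluster 6 held 699 in the total and 1342 in the neuron library, with too few wild type nuclei for a level. Mgll in cluster 2 stood at 121, 122, 115 and 107 CPM.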

How the data were processed

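Nuclear RNA of the hippocampus was captured on the 10x Genomics kit for chromatin and RNA of the same nuclei, per the labels' protocols; only RNA was analysed here. The authors deposited whole-number UMI counts per gene and barcode, with no normalization in the values. Cell Ranger ARC 2.0.0 and mm10 are named in the submitters' processing notes; whether introns and strand were used in counting is not stated there. The libraries held 81623644 to 193307038 UMIs over 8945 to 31243 barcodes, and were joined on 20211 gene symbols.

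UMIs of the Vip nuclei were summed per library and scaled to CPM. Sums carry exact Poisson, ratios exact conditional binomial and shares Clopper-Pearson intervals at 95%, for counting error only. UMIs of 1 nucleus are not independent, so true errors are larger. Log2 ratios used a pseudocount of 1 count, and 2-fold was counted where a gene had 100 or more UMIs in the 4 libraries together, without sex, mitochondrial and rule genes. Sst nuclei had at least 3 Sst UMIs, 0 Pvalb and at most 1 Lamp5; Pvalb nuclei at least 2 Pvalb and at most 1 Sst; Lamp5 nuclei at least 2 Lamp5, at least 1 Adarb2, at most 1 Sst and 0 Pvalb. Granule nuclei had at least 3 Slc17a7, at least 2 Prox1 and 0 Gad UMIs. Doublets were called per library by Scrublet in scanpy 1.11.5 at an expected 0.8% per 1000 barcodes, and were kept unless stated. Clusters used 1500 variable genes, 20 components, 15 neighbours and the Leiden method of igraph 0.11.9 at resolution 0.6. Ratios and intervals were run on simulated Poisson counts with known folds. The simulation held no variation between nuclei or libraries, so it cannot speak to that error.

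Named were list genes with at least 20 UMIs, the 8 highest and 8 lowest ratios per knockout library, and the 15 leading genes per comparator or 8 per split, of which the text gives the main ones. Of 29 lists with 314 genes, 307 genes were in the files. Places are from GENCODE M21 and promoters from RefSeq GRCm38.p6, where 9 of 12 genes looked up were found. The members and lists were chosen with earlier results of these data known. Alternatives were called doublets left out, male nuclei, other UMI minimums, pseudocounts and TMM scaling with edgeR 4.0.16.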

Additional observations from a re-analysis of the deposited data

How the results depend on the processing

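No paired analysis was possible because each genotype had 1 library. The thinned share of Vip nuclei in the neuron library was 3.87%; the other shares moved by less than their counting intervals. Counts of genes at least 2-fold higher and lower followed the UMI minimum in the total, astrocyte and neuron libraries: 151 and 81, 163 and 606, 116 and 190 at 50 UMIs; 21 and 11, 20 and 57, 18 and 23 at 200 UMIs; 1602 and 1799, 1258 and 2899, 1760 and 1580 at 1 UMI. More or fewer genes were tested by construction. Male nuclei alone, which are fewer, gave 168 and 68, 217 and 648, 141 and 161. Without called doublets the total library gave 34 and 45. A pseudocount of 5 gave 34 and 134 in the astrocyte library and 41 lower in the neuron library. With 1 Gad UMI the astrocyte library gave 12 and 107, and with nuclei weighted equally the neuron library gave 64 higher; these last 2 settings were chosen after seeing the data. The cause was not tested.

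Signs turned without called doublets for Mbp (-0.22), Nrg1 (-0.22), St18 (-1.12) and Stxbp6 (-0.038) in the total library and for Ano3 (-3.12), Bcl11b (-0.15), Slit3 (-2.02) and Stxbp6 (-2.33) in the astrocyte library. They turned among male nuclei for Ano3 (-2.72), Il1rapl2 (1.15), Runx2 (-0.57), Slit3 (-3.53) and Stxbp6 (-1.33) in the astrocyte library and for Tox (0.66) and Tshz2 (2.68) in the neuron library, and with 1 Gad UMI for Grm3 in the neuron library (0.44). Of 99 named values past 2-fold, 98 remained under TMM scaling, 95 with at least 3 Vip UMIs, 92 with the pseudocount of 5, 87 with equal weights, 80 with 1 Gad UMI, 69 without called doublets and 65 among male nuclei.

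At 1 UMI in place of 2, nuclei with Calb2 were 42%, 23.1%, 25% and 12%, and with Cck 45.0%, 47.2%, 55.6% and 52.0%. Thinned to 3000 UMIs, those with 2 Calb2 UMIs were 5.10%, 1.08%, 0.00% and 0.00%, and those with 2 Cck UMIs 29.6%, 17.8%, 20% and 31.1%. Depth limits the astrocyte library most: a gene with 0 UMIs there may reach 12.4 CPM at the floor of 3 counts.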
